A study of Mus musculus with 16 samples.

Results

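Mouse embryonic stem cells labelled DKO were compared with cells labelled WT at day 4 of epiblast-like cell induction. The comparison rested on 4 of the series' 16 RNA-seq libraries, DKO replicates 1 and 2 and WT replicates 1 and 2, and took every gene entry with a symbol. There were 21455 such entries among 22122, and 21450 of them had enough signal to be tested. All cells were of the line E14tg2a. The series describes its modified cells as a cis knockout of Prdm14 and as Prdm14-overexpressing cells; DKO was matched to the knockout by elimination, because the overexpressing cells were taken to be those labelled P14. Before induction the cells were kept in 2i medium, serum-free and supplemented with 1000 U/mL LIF, 1 µM of the MEK inhibitor PD0325901 and 3 µM of the GSK3β inhibitor CHIR99021, and the labels' protocols also describe a serum and LIF medium without saying which samples it was used for. Both DKO and WT cells were then moved to a serum-free medium with bFGF at 12 ng/mL on fibronectin and collected at day 2 and day 4. The labels name neither clones nor separate cultures nor batches, so a difference between DKO and WT cannot be told apart from a difference between 2 cell lines, and each p-value reflects only how far these libraries scatter.

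Naive embryonic stem cells resemble the epiblast before implantation. LIF and inhibition of the MEK pathway hold a network of transcription factors in place, among them Nanog, Esrrb, Klf4 and Tfcp2l1. On release into FGF the network is shut down, cells pass through a formative state marked by Otx2, Fgf5 and the de novo DNA methyltransferases, and they become able to enter the germ layers or the germline. PRDM14 is a zinc finger protein of the naive state and of primordial germ cells that represses FGF receptor signalling and de novo methyltransferase genes in mouse cells.

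Values are normalized read counts, one scaling factor per library, and are not corrected for gene length, so levels are compared between libraries and not between genes. Differences are log2 values, DKO minus WT, with the standard error (SE) and the adjusted p of a limma model over all libraries. The 4 libraries held 22996429 and 26042379 recovered reads in DKO cells, against 21072298 and 25957879 in WT cells.

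Prdm14 RNA was higher, not lower, in the libraries labelled DKO. Its gene spans bases 13113457 to 13127163 of chromosome 1 in GRCm38, on the minus strand, and held 595 and 571 normalized counts in DKO cells, against 219 and 166 in WT cells (log2 1.61, SE 0.12, adjusted p = 2.4e-07). The gap was wider at day 4 than at day 2 by 0.64 on the log2 scale (adjusted p = 0.031). The labels do not say which sequence was removed, and the counts do not show whether the remaining transcript is intact, so all directions given here belong to libraries with the DKO label. Among genes that neighbour Prdm14 on its chromosome, 2 of 10 were higher and 3 lower; the 2 became 1 without any 1 library other than WT replicate 1, and the 3 became 1 without DKO replicate 1 and 0 without WT replicate 2. Msc, a basic helix-loop-helix repressor of muscle genes, held 441 and 452 counts in DKO cells, against 6.48 and 10.8 in WT cells (log2 5.57, adjusted p = 6.7e-09). A gene model on the opposite strand overlaps Msc, and the strand setting of the counting is not given. Eya1, a transcriptional cofactor with phosphatase activity, fell (log2 -1.61, adjusted p = 0.003), although it had been higher in DKO cells at day 2 (1.31, adjusted p = 0.014); its fall did not pass without WT replicate 2 (adjusted p = 0.062) or with the 4 day 4 libraries alone (0.056). Partners of PRDM14 moved unevenly: of 7, 3 were higher and 1 lower, with the corepressors Tle4 (0.80) and Runx1t1 (1.27) up and Tle3 (-0.57) down. The call of Runx1t1 was lost without either DKO replicate or WT replicate 1 (adjusted p = 0.067 to 0.16), with limma-voom (0.056) and with the 4 libraries alone (0.11), and the 3 higher partners were 1 without DKO replicate 1 or WT replicate 1. Cbfa2t2, the partner through which PRDM14 acts in mouse stem cells, stood at 897 and 776 counts in DKO cells, against 713 and 670 in WT cells (log2 0.27, adjusted p = 0.088), and passed only with each library centred on its median (adjusted p = 0.036).

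In all, 2950 of 21450 genes passed the adjusted threshold of 0.05, which is 13.8% of those tested. They divided into 1491 genes higher in DKO cells (6.95%) and 1459 lower (6.8%), and the median difference over all genes was -0.03. Each day 4 count of a gene list is to be read beside these shares. Changes of more than 2-fold were found for 657 genes upward and 590 downward, and changes over 3 on the log2 scale for 81 and 72. Both DKO libraries lay outside the range of both WT libraries for every gene that passed, but with 2 libraries a side this also held for 24.6% of all genes upward and 30.3% downward. The split between higher and lower depended on scaling: it was 1888 higher and 1199 lower with each library centred on its median, and 1001 and 1904 with limma-voom on the recovered reads. Leaving out 1 library lowered the whole count to 1828 without DKO replicate 1, 2237 without DKO replicate 2, 1790 without WT replicate 1 and 1661 without WT replicate 2, where it split into 1013 and 648. In these bulk libraries fewer cells of a type and less RNA per cell cannot be told apart.

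Chromosome 8 carried an unequal share of the falls. Of its 1118 tested genes 263 were lower (23.5%) and 32 higher, against 5.88% lower on all other chromosomes, so that 18.0% of all falls lay there. Among genes with a mean of at least 100 counts, the median difference on chromosome 8 was -0.33 at day 4 (641 genes), while the medians of the other autosomes ran between -0.03 and 0.09. The deficit was of the same size in DKO cells at day 2 (-0.32) and in 2i medium (-0.32), and it was spread along the whole chromosome: all 13 bins of 10 Mb had a median between -0.48 and -0.18, with 12 genes in the sparsest. P14 cells at day 4, set against the same WT libraries, had a chromosome 8 median of -0.02. DNA copy number was not measured here, and its part in these falls was not tested. Without chromosome 8 the count was 1459 higher and 1196 lower. Genes on chromosome 8 are marked as such in what follows.

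**Figure D1:**
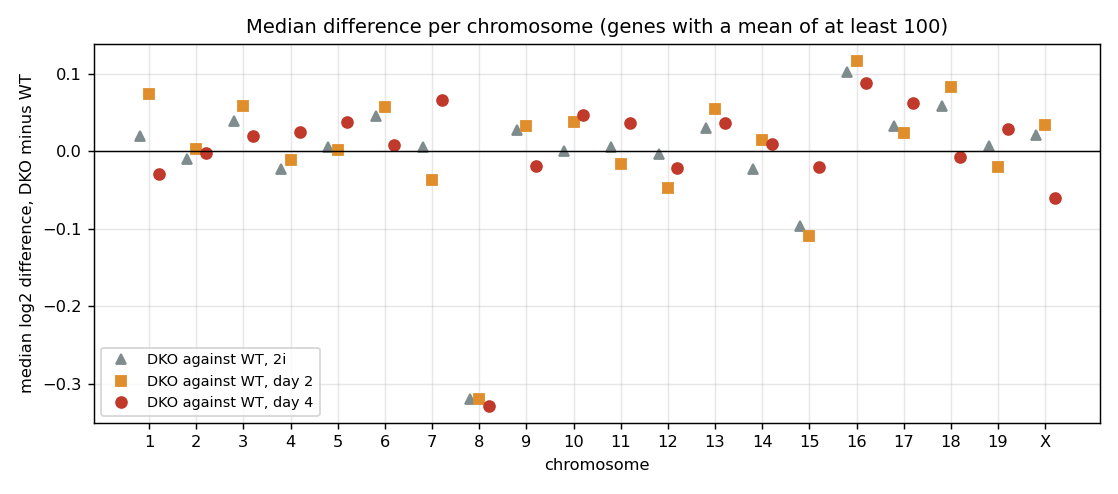
Median log2 difference between DKO and WT (vertical axis) for each autosome and the X chromosome (horizontal axis), over genes with a mean of at least 100 normalized counts. Symbols stand for 2i medium, day 2 and day 4; chromosome 8 lies near -0.32 at all 3 stages and the other chromosomes lie around 0.

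The largest rises were Hox genes of the posterior HoxA cluster, naive transcription factors and an activin subunit. Hoxa11 held 117 and 138 counts in DKO cells and 0 in both WT libraries, which is at least 43.0-fold higher. Hoxa10 held 839 and 818 counts in DKO cells, against 8.63 and 6.32 in WT cells (log2 6.63, SE 0.20, adjusted p = 8.4e-12), and Hoxa9 differed by 6.30 (adjusted p = 3.4e-06). After these came Inhbb (5.98), Msc, Fgf5, Nanog (4.92), Bhmt (4.79), Esrrb (4.69) and Nr0b1 (4.66). Bhmt, a methyltransferase that remakes methionine from betaine, held 117 and 97.4 counts in DKO cells, against 1.08 and 6.32 in WT cells.

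Falls were led by a cytokine subunit, a retinoic acid binding protein and genes of an imprinted cluster. Il23a, a subunit of interleukin 23, was very uneven: 21.6 and 5204 counts in DKO cells, against 11659 and 25460 in WT cells (log2 -5.65, SE 1.55, adjusted p = 0.023), and it did not pass with the 4 day 4 libraries alone (adjusted p = 0.27), nor without DKO replicate 1 or either WT replicate (0.068 to 0.18). Crabp2, which carries retinoic acid to its receptors, held 33.4 and 43.0 counts in DKO cells, against 1405 and 1314 in WT cells (log2 -5.13, adjusted p = 1.9e-06). Cdkn1c, a cyclin-dependent kinase inhibitor, held 165 and 158 counts in DKO cells, against 4389 and 5110 in WT cells (log2 -4.87, adjusted p = 2.2e-10); a gene model overlaps it on the other strand. The remaining large falls were genes near their detection limit in DKO cells. Slc22a18, the neighbour of Cdkn1c, was at 0 in both DKO libraries, against 25.9 and 25.3 counts in WT cells (at least 8.80-fold lower). The lower bounds were 8.80-fold for Elfn2, 8.12-fold for Adamts12, 10.3-fold for Vgll2 and 5.15-fold for Gpr142. The calls of Vgll2 and Gpr142 were lost with a pseudocount of 0.1 (adjusted p = 0.13 and 0.077), that of Gpr142 also without any 1 of the 4 libraries (0.053 to 0.10) and that of Vgll2 without replicate 2 of DKO (0.067) or WT (0.056). Plxna4, a receptor for semaphorins, held 23.6 and 8.59 counts in DKO cells, against 285 and 283 in WT cells (log2 -4.21, adjusted p = 2.3e-06).

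**Figure D2:**
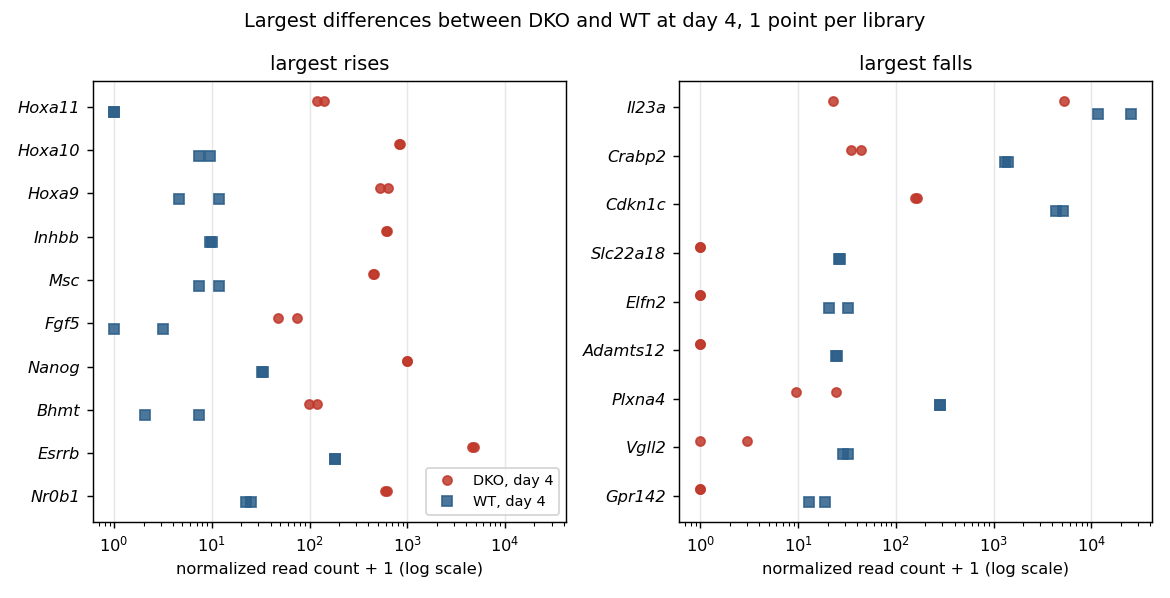
Normalized read count plus 1 (horizontal axis, log scale) in each library for the largest rises and falls given in the text (rows). Circles are DKO and squares WT. Only genes whose groups do not overlap were eligible, and the 2 DKO libraries of Il23a lie at 21.6 and 5204.

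The naive program was still present at day 4 in DKO cells. Of 19 naive factors tested, Prdm14 among them, 15 were higher and 0 lower (1 lower without DKO replicate 1), with a median difference of 2.14 beside -0.03 for all genes. Nanog held 989 and 1002 counts in DKO cells, against 31.3 and 32.5 in WT cells (log2 4.92, SE 0.10, adjusted p = 5.4e-14). Both DKO libraries were about the level that WT cells had at day 2, where Nanog averaged 898 counts. Esrrb, an orphan nuclear receptor that keeps naive cells self-renewing, held 4824 and 4587 counts in DKO cells, against 179 and 183 in WT cells (log2 4.69, adjusted p = 6.4e-14). Nr0b1, an X-linked nuclear receptor of naive cells, held 620 and 591 counts in DKO cells, against 21.6 and 24.4 in WT cells (log2 4.66, adjusted p = 8.8e-14). The T-box factor Tbx3 (3.58) and the Krüppel-like factors Klf4 (3.15) and Klf5 (2.52) also rose. Smaller rises were found in Tet2 (1.89), Zfp42 (1.89, on chromosome 8, and thus against the shift of that chromosome) and Tfcp2l1 (1.69). Klf2 (0.31, chromosome 8) and Mael (0.91) were among the 4 that did not pass.

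DKO cells were nevertheless losing these genes. Between day 2 and day 4, 14 of the 19 fell in DKO cells (median log2 change -0.97; 9.59% of all genes fell) and 17 fell in WT cells (median -2.30; 15.8% of all genes fell). The gap to WT grew in the same interval: the difference was larger at day 4 than at day 2 for 13 of 19 and smaller for 0, beside 4.53% and 4.07% of all genes. In 2i medium, before induction, only 3 were higher and 1 lower (median -0.01), beside 3.19% and 5.47% of all genes, whereas at day 2 already 14 were higher and 3 lower (median 0.97), beside 5.98% and 6.64%. In 2i medium Esrrb and Nr0b1 did not differ beyond the threshold (adjusted p = 0.81 and 0.43). At day 4 the DKO mean of 8 of the 15 risen genes was at or below the WT mean of day 2, and that of the other 7 above it. Among all 1491 genes higher at day 4, these counts were 813 and 678, so the naive genes were near the share over all risen genes.

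General pluripotency genes were divided, and cells of both labels expressed them; Sall4, for one, stood at 5377 and 5072 counts in DKO cells, against 4691 and 4892 in WT cells (log2 0.12, adjusted p = 0.47). Of 16, 8 were higher and 3 lower (median 0.50). Dppa2, which with Dppa4 keeps developmental promoters open, held 882 and 1145 counts in DKO cells, against 220 and 276 in WT cells (log2 2.02, adjusted p = 1.3e-07). L1td1 (1.47), Dppa4 (1.34) and Utf1 (2.04) rose. Sox2, which naive and formative cells share, was 4391 and 4105 counts in DKO cells, against 3083 and 3493 in WT cells (log2 0.37, adjusted p = 0.019), and its call was lost with equal totals (adjusted p = 0.095), with limma-voom (0.074), with the 4 libraries alone (0.10) and without DKO replicate 1 (0.12) or WT replicate 1 (0.18). Lin28a, an RNA binding protein that blocks let-7 maturation, fell (-1.25), and so did Cdh1 (-2.12, chromosome 8). E-cadherin, the product of Cdh1, had 338 and 433 counts in DKO cells, against 1658 and 1684 in WT cells, a fall far larger than the chromosome's median. The gene entry of Pou5f1 cannot be read as the level of OCT4: it held 3.93 and 9.55 counts in DKO cells, against 0 and 1.81 in WT cells, whereas the Gm19553 model that overlaps it on the other strand held 2277 and 2263 in DKO cells, against 777 and 711 in WT cells (log2 1.61, adjusted p = 2.9e-08). Reads of the pair cannot be told apart.

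Receptors of the LIF pathway were higher although LIF was not listed among the additions to the induction medium. Of 13 genes 5 were higher and 1 lower (median 0.25; 2 lower without DKO replicate 2). The receptor subunit Lifr held 2155 and 2111 counts in DKO cells, against 859 and 826 in WT cells (log2 1.34, adjusted p = 2.3e-07). Its partner Il6st (0.70), the kinase target Pim1 (1.04) and Stat3 (0.51) rose as well, while the kinase Jak2 fell (-1.15). Socs3, the feedback inhibitor of the pathway, was lower in value but did not pass (-0.53).

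**Figure D3:**
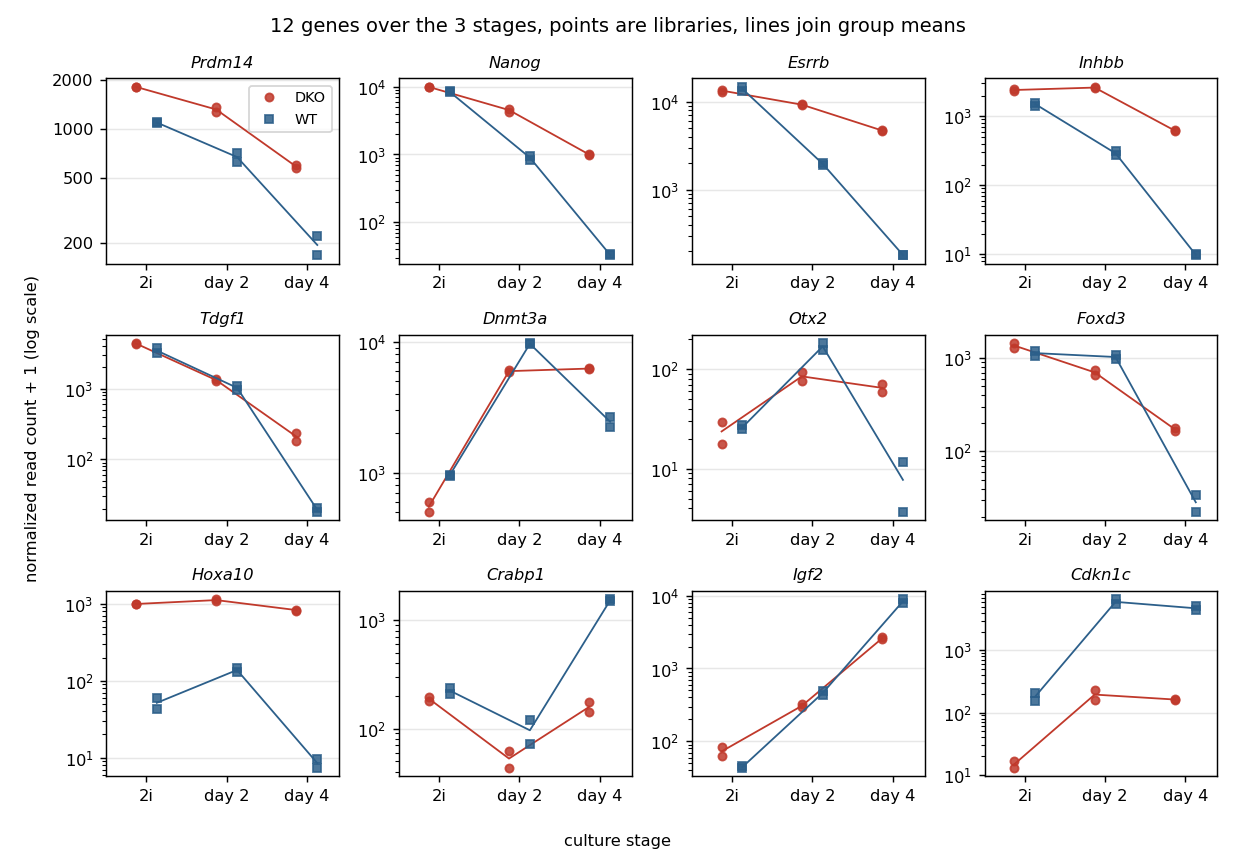
Normalized read count plus 1 (vertical axis, log scale) of 12 genes at 3 stages (horizontal axis: 2i medium, day 2, day 4), DKO as circles and WT as squares, with lines through the group means. Nanog and Esrrb start together in 2i medium and separate by day 4, Dnmt3a and Otx2 are lower in DKO cells at day 2 and higher at day 4, and Cdkn1c is low in DKO cells at every stage.

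Precursor genes of 1 microRNA cluster were higher as well. The Mir290 cluster on chromosome 7, whose products are the main microRNAs of naive mouse stem cells, had 8 entries tested; they were chosen after their values were seen. Of these, 6 were higher and 0 lower, with a median of 2.15. Mir291a held 145 and 115 counts in DKO cells, against 27.0 and 25.3 in WT cells (log2 2.26, SE 0.21, adjusted p = 2.6e-06), and Mir290a held 81.6 and 66.8 counts in DKO cells, against 17.3 and 17.2 in WT cells (log2 2.04, adjusted p = 6.3e-05). Mir293 (0.99) and Mir295 (1.65) did not pass. At day 2 the difference of Mir291a was 0.24 and that of Mir290a 0.33, and neither passed. Mir290b and Mir292b lie on the other strand of Mir290a and Mir292, so these pairs are not separate evidence, and both Mir292 (adjusted p = 0.072) and Mir292b (0.11) missed the threshold with the 4 day 4 libraries alone. Counts at these entries come from total RNA libraries and do not measure the mature microRNAs. Nlrp12 overlaps Mir291a, Mir291b, Mir292, Mir293 and Mir295 on the other strand and Mir292b on the same strand. As the strand setting of the counting is not given, reads of Nlrp12 cannot be told apart from those of these entries. The mature sequences are shown because the cluster is defined by 2 recurring seeds; capitals mark bases 2 to 8 (RefSeq, GRCm38.p6). The first group shares the letters AAGUGC:
mmu-miR-290a-3p: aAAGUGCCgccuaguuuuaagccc
mmu-miR-291a-3p: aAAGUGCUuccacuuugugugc
mmu-miR-291b-3p: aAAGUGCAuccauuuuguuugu
mmu-miR-295-3p: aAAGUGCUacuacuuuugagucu
The second group comes from the other arm and shares CUCAAAC:
mmu-miR-290a-5p: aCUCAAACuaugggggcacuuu
mmu-miR-292a-5p: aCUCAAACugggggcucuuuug
mmu-miR-293-5p: aCUCAAACugugugacauuuug

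Because the naive factors rose together, their promoters were searched for TTTGCAT, the core of the site bound by OCT4 and other POU factors, on both strands (ATGCAAA on the other). RefSeq promoters of GRCm38.p6, from 250 bases before to 50 after the start, were at hand for 11 of the 15 risen naive genes, and 2 of them held the motif. Counted by gene, the motif stood in 45 of the 1026 genes higher at day 4 that had a promoter at hand (4.39%). It stood in 5.22% of the 1016 lower genes with a promoter and in 4.15% of the 12717 tested genes with one. The share among risen genes with a promoter was thus near the background. The 2 promoters are those of Nanog (chr6:122707239-122707538, plus strand, motif from base 176) and Zfp42 (chr8:43306960-43307259, minus strand, motif from base 66); capitals mark the motif.
Nanog: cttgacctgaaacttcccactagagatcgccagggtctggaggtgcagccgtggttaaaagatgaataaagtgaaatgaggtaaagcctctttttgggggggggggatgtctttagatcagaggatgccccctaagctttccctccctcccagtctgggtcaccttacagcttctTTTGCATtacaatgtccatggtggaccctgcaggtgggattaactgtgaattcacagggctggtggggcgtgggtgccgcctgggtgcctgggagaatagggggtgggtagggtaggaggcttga
Zfp42: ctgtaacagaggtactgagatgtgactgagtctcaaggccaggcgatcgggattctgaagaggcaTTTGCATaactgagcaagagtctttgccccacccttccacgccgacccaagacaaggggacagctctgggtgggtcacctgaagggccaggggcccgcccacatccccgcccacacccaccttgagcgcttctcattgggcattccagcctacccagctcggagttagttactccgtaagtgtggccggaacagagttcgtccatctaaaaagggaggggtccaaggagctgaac

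Formative genes split into a group that was higher and a group of the same size that was lower. Of 17, 6 were higher and 6 lower (median -0.04). Fgf5, the classical marker of the postimplantation epiblast, held 72.8 and 46.8 counts in DKO cells, against 2.16 and 0 in WT cells, which is at least 20.1-fold higher. Otx2, the transcription factor that drives the formative state, held 69.8 and 58.2 counts in DKO cells, against 10.8 and 2.71 in WT cells (log2 3.29, SE 0.44, adjusted p = 0.00011, but 0.063 with the 4 libraries alone). Foxd3, a forkhead factor needed to leave the naive state, held 177 and 166 counts in DKO cells, against 21.6 and 33.4 in WT cells (log2 2.63, adjusted p = 1.5e-06). Both WT libraries were far below their day 2 means, which were 169 counts for Otx2 and 1026 for Foxd3. The FGF-responsive factors Etv5 (0.93) and Etv4 (0.68) rose as well. The falls included Sall2 (-1.57) and the Sox genes Sox3 (-1.80) and Sox11 (-1.15), which also serve neural progenitors; Sox3 missed the threshold without DKO replicate 2 (adjusted p = 0.056) or WT replicate 1 (0.073), and the 6 falls were 2 without DKO replicate 2 and 3 without any of the other libraries. Pou3f1, another formative factor, stood at 670 and 638 counts in DKO cells, against 609 and 744 in WT cells (log2 -0.04, SE 0.21, adjusted p = 0.93). At day 2 it had been lower in DKO cells by 2.63, and the difference between the days passed (2.59, adjusted p = 6.6e-05).

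DNA methylation genes followed the same 2 directions. Dnmt3a, a de novo methyltransferase, held 6178 and 6302 counts in DKO cells, against 2238 and 2653 in WT cells (log2 1.36, SE 0.11, adjusted p = 3.5e-07). At day 2 it had been lower in DKO cells (-0.70, adjusted p = 0.00039), and the reversal passed (2.05, adjusted p = 1.0e-06). Dnmt3b was 1579 and 1695 counts in DKO cells, against 2200 and 2023 in WT cells (log2 -0.37, adjusted p = 0.035), a smaller deficit than at day 2 (-1.61). That call was lost without any 1 of the 4 libraries (adjusted p = 0.064 to 0.21), with the 4 alone (0.083) and with median centring (0.077). Dnmt3l, the catalytically inactive cofactor of both, had been lower at day 2 by 1.58 and stood at 541 and 657 counts in DKO cells at day 4, against 445 and 456 in WT cells (log2 0.40, adjusted p = 0.11). The oxidases Tet1 (1.47) and Tet2 rose, whereas Tet3, the paralog of differentiating cells, fell (-0.55, lost without any 1 of the 4 libraries, adjusted p = 0.072 to 0.14). Of 13 genes of this list 3 were higher and 2 lower, and the 2 falls were 0 without any 1 library. In the Polycomb repressive complex 2, 3 of 13 were higher and 0 lower, and these were the accessory subunits Jarid2 (0.94), Epop (0.75) and Mtf2 (0.58); with median centring the count was 5.

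Most genes of Nodal and Activin signalling were higher, while 3 intracellular transducers were lower. Of 17 members 11 were higher, 3 were lower and 3 did not pass (median 1.49). Among ligands, Inhbb, the subunit of activin B, held 624 and 612 counts in DKO cells, against 8.63 and 9.03 in WT cells (log2 5.98, SE 0.13, adjusted p = 6.4e-14), and Nodal held 552 and 496 counts in DKO cells, against 106 and 84.9 in WT cells (log2 2.45, adjusted p = 5.6e-08). The coreceptor Tdgf1 held 178 and 238 counts in DKO cells, against 19.4 and 17.2 in WT cells (log2 3.42, adjusted p = 1.5e-09). The secreted inhibitor and target Lefty1 (3.42) and the intracellular inhibitor Smad7 (2.65) rose with them. The 3 falls were Smad3 (-1.05), Foxh1 (-0.78) and Smad2 (-0.63), which carry the signal to DNA. For 9 of the 17 the difference was larger at day 4 than at day 2 and for 1 smaller, beside 4.53% and 4.07% of all genes. Lefty1 had been lower in DKO cells in 2i medium (-1.93).

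Lists of other signalling pathways held changes in both directions. Over all genes 6.95% were higher and 6.8% lower. The BMP and Wnt counts are few genes each and are not read as results about those pathways. BMP signalling had 2 of 17 higher and 2 lower: Bmp4 (1.66, adjusted p = 0.0016, but 0.068 with the 4 libraries alone) and Id4 (1.63) rose, Bmp7 (-1.61) and Id3 (-1.96) fell. Id3, a target of BMP signals that blocks basic helix-loop-helix factors, held 79.7 and 96.4 counts in DKO cells, against 332 and 354 in WT cells; at day 2 it had been higher in DKO cells (2.28), and the reversal passed (-4.23, adjusted p = 0.00027). FGF signalling had 8 of 18 higher and 3 lower. Besides Fgf5, Fgf4, the autocrine ligand of naive cells, held 108 and 118 counts in DKO cells, against 23.7 and 15.3 in WT cells (adjusted p = 4.5e-08), and the feedback inhibitor Spry4 rose (1.04). The receptor Fgfr1 (-0.62, chromosome 8) fell. Wnt response genes had 2 of 16 higher and 2 lower; the secreted inhibitor Notum rose (2.71, adjusted p = 2.6e-07), while the 2 rises were 1 and the 2 falls 0 without any 1 library. Of 12 Notch genes, 0 were higher and 4 lower, among them the modifier Lfng (-3.18), the ligand Dll1 (-1.47) and the receptor Notch1 (-1.23).

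**Figure D4:**
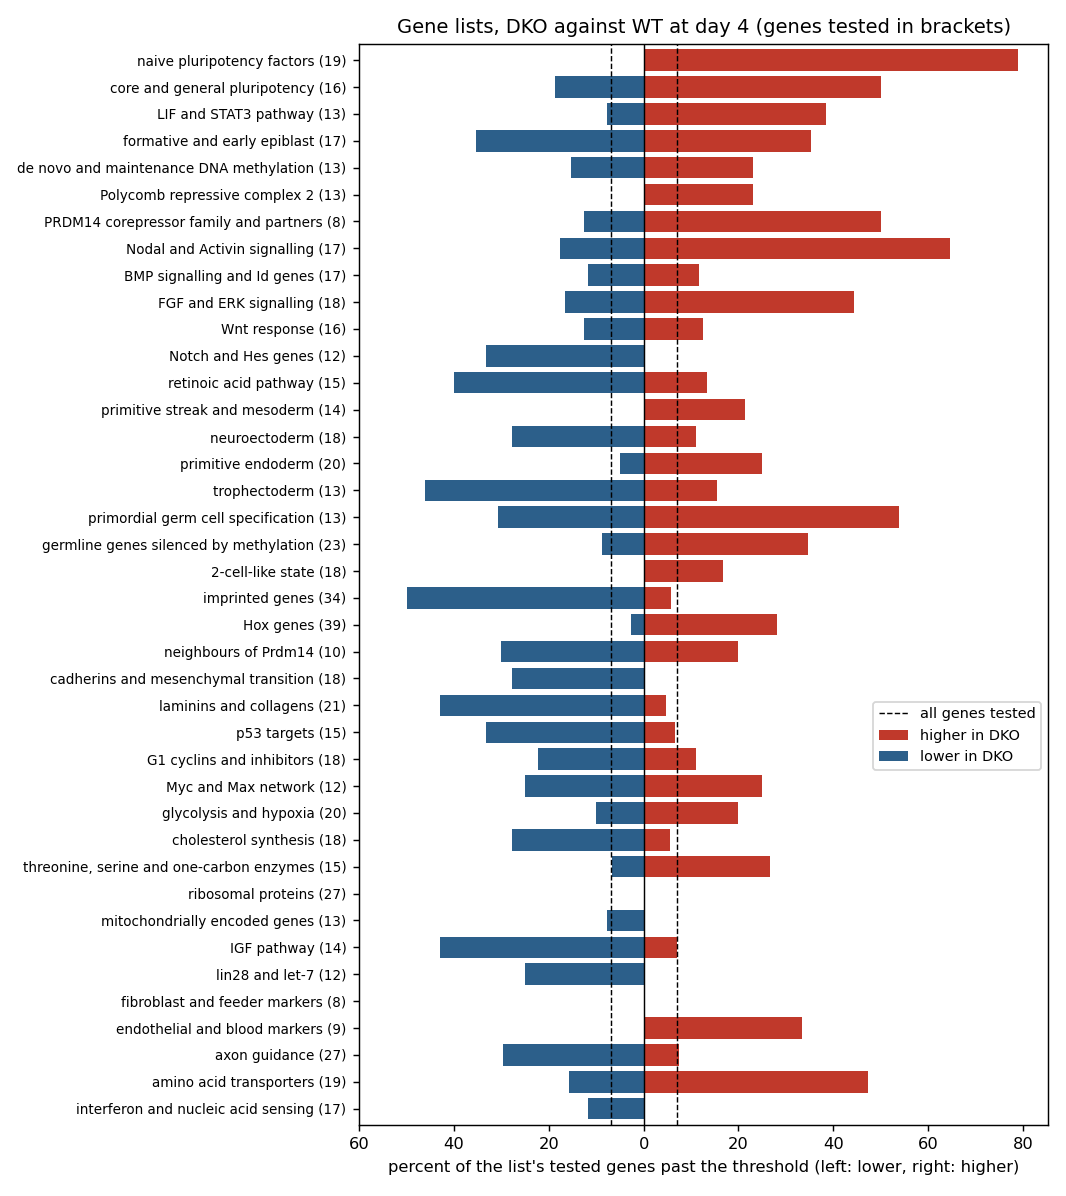
Share of each gene list past the threshold (horizontal axis, percent of the genes tested, lower to the left and higher to the right of 0) for 40 lists (rows). The dashed lines mark the same shares over all genes tested, 6.8% and 6.95%; naive factors and Nodal genes reach furthest to the right, imprinted and trophectoderm genes furthest to the left.

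Retinoic acid genes had more falls than rises. Of 15, 2 were higher and 6 lower (median -0.88). The binding protein gene Crabp1 fell beside Crabp2: it held 141 and 175 counts in DKO cells, against 1553 and 1494 in WT cells (log2 -3.27, SE 0.24, adjusted p = 1.7e-07). Aldh1a1, which makes retinoic acid, was at 0 in both DKO libraries, against 15.1 and 10.8 counts in WT cells (at least 4.46-fold lower; adjusted p = 0.0078, but 0.067 without WT replicate 1). The receptors did not share a direction: Rarb fell (-1.31) and Rarg rose (0.65). The 2 rises became 1 without DKO replicate 1 or WT replicate 2.

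Germ layer genes differed by lineage. Among 18 neuroectoderm genes 2 were higher and 5 lower (median -0.96). Nes, the intermediate filament of neural progenitors, held 188 and 258 counts in DKO cells, against 1078 and 1212 in WT cells (log2 -2.37, adjusted p = 4.3e-07). Neural cadherin, Cdh2, fell (-1.13), while En2 (1.73) and Zic5 (0.83) rose. The neural determinants Sox1 (-0.48, chromosome 8) and Pax6 (-0.85) did not pass (adjusted p = 0.11 and 0.077), and both passed with limma-voom (0.024 and 0.0098). The 5 falls were 8 with limma-voom, 3 without DKO replicate 2 or WT replicate 1 and 2 without WT replicate 2. In primitive streak and mesoderm 3 of 14 were higher and 0 lower. Tcf15, a basic helix-loop-helix factor of somites that is also expressed in stem cells primed to differentiate, held 3264 and 2989 counts in DKO cells, against 408 and 450 in WT cells (log2 2.86, SE 0.14, adjusted p = 2.0e-09). Eomes, a T-box factor of streak and trophoblast, rose (1.77).

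Primitive endoderm genes had 5 of 20 higher and 1 lower. Gata6, a regulator of that lineage, held 1354 and 1382 counts in DKO cells, against 222 and 235 in WT cells (log2 2.58, SE 0.19, adjusted p = 2.5e-07), and Pdgfra (2.32) and Gata4 (1.23, adjusted p = 0.0048, but 0.060 without WT replicate 2) rose with it. The 5 rises were 3 without WT replicate 1 and 2 without WT replicate 2. Sox17, which acts downstream of them, stood at 339 and 330 counts in DKO cells, against 423 and 449 in WT cells (log2 -0.38, adjusted p = 0.74), and the secreted matrix protein Sparc fell (-0.68). Trophectoderm genes had 2 of 13 higher and 6 lower (median -0.79). Cdx2 held 477 and 493 counts in DKO cells, against 146 and 136 in WT cells (log2 1.77, adjusted p = 0.00011), but it serves posterior mesoderm as well, and the keratin Krt8 fell (-0.79, adjusted p = 0.0027, but 0.063 with the 4 libraries alone). The 6 falls were 2 without DKO replicate 1 and 3 without either WT replicate.

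Summed markers of other cell types differed unevenly. The sum of 5 neuroectoderm markers was 3121 and 3451 counts in DKO libraries, against 6669 and 7278 in WT libraries. That of 6 primitive endoderm markers was 4196 and 4472 in DKO libraries, against 2689 and 2752 in WT libraries. Of these 6, Gata6, Pdgfra and Gata4 were higher, while Sox17, Sox7 and Dab2 did not pass. Dab2 held 1091 and 1292 counts in DKO libraries, against 1654 and 1634 in WT libraries (log2 -0.47). The sum of 3 streak markers was 387 and 385 in DKO libraries, against 132 and 135 in WT libraries, but 324 and 349 of these counts in DKO libraries, against 90.7 and 106 in WT libraries, were those of Eomes, which is also a trophectoderm marker, and the other 2 markers did not pass. The trophectoderm sums overlapped, with 1532 and 1830 in DKO libraries, against 1576 and 1764 in WT libraries. The sum of 6 pluripotency markers was 15341.2 and 14451 in DKO libraries, against 16222.7 and 17069.6 in WT libraries, with Lin28a falling and Nanog, Utf1 and Sox2 rising within it. Of these 6, 1 was at 0 in a library, namely Pou5f1, whose entry cannot be read as the level of OCT4. The sum of 4 endothelial markers was 765 and 793 in DKO libraries, against 298 and 405 in WT libraries. Of these 4, Kdr and Pecam1 were higher, while Cdh5 (1.01) and Tek (-0.39) did not pass. The sum of 2 blood markers was 335 and 293 in DKO libraries, against 175 and 163 in WT libraries, where Runx1 was higher in DKO cells and Cd34 had a difference of -0.92 that passed only with limma-voom (adjusted p = 0.026). Runx1 (2.78), Kdr (1.65) and Pecam1 (1.29) rose in the list of endothelial and blood genes (3 of 9 higher, 0 lower); Pecam1 is also made by naive stem cells, and its call was lost with the 4 libraries alone (adjusted p = 0.15). Fibroblast marker sums overlapped (363 and 322 in DKO libraries, against 355 and 393 in WT libraries), with 1 of its 5 markers at 0 in a library. The part of other cell types in the differences above was not tested.

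Germ cell genes moved in both directions. Among 13 specifiers of primordial germ cells, Prdm14 included, 7 were higher and 4 lower. Tfap2c, an AP2 factor of the germline program, held 579 and 572 counts in DKO cells, against 318 and 324 in WT cells (log2 0.84, adjusted p = 0.0019), and Kit, the receptor for stem cell factor, rose by the same amount (0.84). Prdm1, which starts the germline program in mouse, went the other way with 347 and 371 counts in DKO cells, against 1035 and 1180 in WT cells (log2 -1.62, adjusted p = 0.001). Prdm1 had been higher in DKO cells at day 2 (1.63) and in 2i medium (1.16), and the reversal from day 2 passed (-3.25, adjusted p = 0.00012). The interferon-induced membrane protein gene Ifitm3 reversed in the same way (-2.26 at day 4 and 1.75 at day 2). Of 23 germline genes normally silenced by DNA methylation, 8 were higher and 2 lower (median 0.28); Dazl, an RNA binding protein of germ cells, held 72.8 and 116 counts in DKO cells, against 15.1 and 6.32 in WT cells (log2 3.10, adjusted p = 1.5e-05). Tuba3a (2.20) and Tuba3b (2.27) rose too, but they are near-identical tubulin copies whose reads may be split. Each of these 8 had a DKO mean at day 4 at or below the WT mean of day 2; the count of 8 was 5 without WT replicate 1 and 3 with limma-voom, and the 2 falls were 1 without DKO replicate 2 and 0 without any of the other libraries. Among all 1491 genes higher at day 4, 813 had a DKO mean at or below the WT mean of day 2. In the 2-cell-like list 3 of 18 were higher, Calcoco2 (3.60), Dppa2 and Dppa4. The defining Zscan4c, one of several near-identical copies, did not pass (0.65, adjusted p = 0.063, but 0.039 both with median centring and with the replicate number as a block).

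Imprinted genes made up the list with the most falls. Of 34, 2 were higher and 17 lower (median -1.04). On distal chromosome 7 the maternally expressed genes Cdkn1c, Slc22a18, Phlda2 (-3.25) and Kcnq1 (-3.11) fell together with the paternally expressed growth factor Igf2. Igf2 held 2664 and 2515 counts in DKO cells, against 7862 and 8845 in WT cells (log2 -1.69, SE 0.14, adjusted p = 9.5e-07). On chromosome 12 the noncoding genes Meg3 (-1.57), Rian and Mirg (-2.13) fell; Rian stood at 414 and 368 counts in DKO cells, against 1569 and 1549 in WT cells. The growth inhibitor Grb10 (-1.36), Peg3 (-1.44) and Mest (-1.11) fell too. The 2 rises were Plagl1 and Zrsr1 (0.96). Plagl1, a zinc finger regulator of imprinted genes, held 1255 and 1126 counts in DKO cells, against 62.6 and 80.3 in WT cells (log2 4.05, SE 0.21, adjusted p = 4.3e-09), and it was also higher at day 2 (3.59) and in 2i medium (2.54). Cdkn1c was lower at all 3 stages by a like amount at day 2 (-4.96), with a change between day 2 and day 4 of 0.10 (adjusted p = 0.88). Peg3 and Igf2, in contrast, were higher in DKO cells in 2i medium (0.56 and 0.70), and for both the difference had moved downward by day 4 relative to day 2 (-1.70 and -1.10, adjusted p = 3.6e-06 and 0.003).

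Several Hox genes were higher in DKO cells, and most of the list did not pass. Of 39, 11 were higher and 1 lower at day 4 (median 0.55; 0 lower without WT replicate 2), 18 and 5 at day 2 and 16 and 0 in 2i medium; with the 4 day 4 libraries alone the 11 were 7. Over all genes 6.95% were higher and 6.8% lower at day 4, 5.98% and 6.64% at day 2, and 3.19% and 5.47% in 2i medium. Besides Hoxa9, Hoxa10 and Hoxa11, Hoxa7 held 476 and 435 counts in DKO cells, against 107 and 141 in WT cells (log2 1.88, adjusted p = 3.9e-06), and Hoxc9 rose (2.75). Hoxa10 was nearly level across stages in DKO cells, whose mean was 996 counts in 2i medium, then 1119 (day 2) and 829 (day 4); WT means were 50.6, 137 and 7.48. Mir196b, which lies within Hoxa9, held 19.7 and 10.5 counts in DKO cells and 0 in both WT libraries (at least 5.07-fold higher; adjusted p = 0.0042, but 0.0501 without DKO replicate 1). Mir196b and Hoxa9 overlap on the same strand, so the rise of Mir196b is not separate evidence. The mature product of Mir196b from the 5′ arm is shown with the seed in capitals.
mmu-miR-196b-5p: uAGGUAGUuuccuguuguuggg

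Adhesion and matrix lists had more falls than rises. Of 18 cadherin and mesenchymal transition genes 0 were higher and 5 lower, including Zeb2 (-1.15) and the gelatinase Mmp2 (-1.50, chromosome 8). Of 21 laminins, collagens and related proteins 1 was higher and 9 lower (median -0.71), the 9 being 5 without DKO replicate 1 and 4 without WT replicate 2, and the 1 being 0 without DKO replicate 2 or either WT replicate. Lamb2 held 362 and 252 counts in DKO cells, against 775 and 766 in WT cells (log2 -1.35, adjusted p = 0.00011), while the embryonic laminin chains Lama1 (0.32) and Lamb1 (0.13) did not pass. Axon guidance genes had 2 of 27 higher and 8 lower (median -0.82), or 5 lower without WT replicate 2; Plxna2 fell (-1.49) after being higher at day 2 (1.28), and Epha2, an ephrin receptor of naive and formative cells, rose with 2543 and 2404 counts in DKO cells, against 731 and 702 in WT cells (log2 1.79, adjusted p = 1.0e-08).

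Growth and cell cycle genes were divided as well, beside 6.95% of all genes higher and 6.8% lower at day 4. In the insulin-like growth factor list 1 of 14 was higher and 6 lower: the binding protein Igfbp5 held 697 and 858 counts in DKO cells, against 4420 and 4886 in WT cells (log2 -2.58, adjusted p = 1.8e-05), and Igfbp2 rose with 5208 and 5593 counts in DKO cells, against 2154 and 2250 in WT cells (log2 1.29). Among G1 regulators 2 of 18 were higher and 4 lower, the 4 being 2 without DKO replicate 1 or either WT replicate and the 2 being 1 without DKO replicate 1 or WT replicate 2 and 0 without DKO replicate 2 or WT replicate 1; the D-type cyclin Ccnd1 fell (-1.51, adjusted p = 2.3e-07). The Myc family exchanged members: Myc held 1656 and 1592 counts in DKO cells, against 654 and 501 in WT cells (adjusted p = 4.8e-07), while Mycl (-1.97) and Mycn (-0.64) fell. Of 15 p53 targets 1 was higher and 5 lower (3 without DKO replicate 2), with Ccng1 (-0.99) and Tnfrsf10b (-1.17) down; Ccng1 had been higher in DKO cells at day 2 (0.63) and in 2i medium (1.27).

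Metabolic lists were mixed. Over all genes 6.95% were higher and 6.8% lower at day 4, and 5.98% and 6.64% at day 2. The glucose transporter Slc2a3 held 9558 and 10013 counts in DKO cells, against 2154 and 2324 in WT cells (log2 2.13, SE 0.10, adjusted p = 9.6e-10), and in its glycolysis list 4 of 20 were higher and 2 lower (1 lower without DKO replicate 1 or WT replicate 2). Tdh, the threonine dehydrogenase on which mouse stem cells depend, held 152 and 142 counts in DKO cells, against 36.7 and 43.3 in WT cells (log2 1.86, adjusted p = 1.9e-06). Amino acid transporters had 9 of 19 higher and 3 lower (median 0.45; 5 higher without DKO replicate 2, 1 lower without DKO replicate 1 or WT replicate 1, with equal totals or with the 4 libraries alone), led by Slc7a7 (1.16), Slc7a3 (0.94) and Slc7a1 (1.00); at day 2 only 1 had been higher and 8 lower. Cholesterol synthesis genes had 1 of 18 higher (0 without DKO replicate 2 or WT replicate 1) and 5 lower (2 without DKO replicate 1 or WT replicate 2), of which Msmo1 (-0.82) and Mvd (-0.98) lie on chromosome 8. Ribosomal protein genes, measured for 27, gave 0 calls in either direction in the main limma fit (median -0.04), 0 at an unadjusted p under 0.05 and 1, a fall, with limma-voom. Fits without DKO replicate 1 or without DKO replicate 2 also gave calls, in opposite directions. Mitochondrially encoded genes had a median of -0.58, with 1 of 13 lower, but 0 without DKO replicate 1 or WT replicate 2 and 3 without DKO replicate 2.

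Part of the day 4 difference was present earlier. Of the 1491 genes higher at day 4, 414 were also higher at day 2, which is 27.8% of the day 4 list and 32.3% of the day 2 list, and 89 were lower at day 2. Of the 1459 lower genes, 396 were also lower at day 2 (27.1% of the day 4 list, 27.8% of the day 2 list) and 92 higher. With 2i medium the overlap was 149 genes higher at both stages (9.99% of the day 4 list) and 285 lower (19.5%). At all 3 stages 109 genes were higher and 176 lower. Tested directly, the difference between DKO and WT changed between day 2 and day 4 for 1845 genes (8.6%), upward for 972 and downward for 873; without WT replicate 1 the count was 1220 and without WT replicate 2 it was 1171. The genes that passed this test include the reversals of Dnmt3a, Prdm1 and Id3 given above and the widening of Nanog by 2.58 and of Esrrb by 2.46.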

How the data were processed

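RNA of 16 libraries (8 groups of 2) was measured with a strand-marking total RNA kit, per the labels' protocols. Trim Galore, HISAT2, featureCounts and mm10 (GRCm38) are named in the submitters' processing notes, without versions; the strand setting is not given in the sources used here. Values deposited by the authors are log2 of normalized counts plus 4. The 4 was removed; every library's values below 1000 reads were then whole multiples of a single step (100% within 0.1 of a whole number), which gave recovered reads between 20696338 and 32710603 per library. Entries with no symbol (667 of 22122) held 7.61% to 11.1% of the reads and were left out, and 3 symbols stood on more than 1 entry. Symbols were matched to GENCODE M21 for positions and overlaps (21455 matched) and to RefSeq tables for sequences.

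The main test was limma 3.58.1 (R 4.3.3) on log2(value + 1), with a trended variance, over 16 libraries and 8 group means, for genes that reached a value of 1 in no fewer than 2 libraries; log2 changes of low genes are understated on this scale. Adjusted p-values are two-sided, Benjamini-Hochberg over 21450 genes, with a threshold of 0.05. limma-voom on recovered reads was an alternative, and the procedure was tested on simulated data. Where a library was at 0, folds are lower bounds from a floor of 3 reads per library, which cover counting error only. No batch is given in the labels.

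The genes in the text are Prdm14, the 10 largest rises and 10 largest falls with a mean of at least 10 in 1 group, leading members of 40 gene lists and fixed anchor genes; further members were named after their values were seen, and some items that this choice covers are not reported here. The members and lists were chosen with earlier results of these data known. Tables were made with Python 3.11.15, pandas 2.3.3 and numpy 2.4.6, and figures with matplotlib 3.10.9.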

Additional observations from a re-analysis of the deposited data

Results flagged for a closer look

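Of the 166 genes named here, 97 had a difference between DKO and WT that changed between day 2 and day 4, with an adjusted p under 0.05 in the limma test of the change itself. The change was upward for 66 and downward for 31. It is given in brackets on the log2 scale, the day 4 difference minus the day 2 difference, so that a positive value means that DKO cells moved up relative to WT cells. The genes were named for their day 4 values, so these counts describe them and are not a second line of evidence.

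Among naive and pluripotency genes all that passed moved upward: Nanog (2.58), Nr0b1 (3.62), Esrrb (2.46), Mael (2.29), Klf2 (2.08), Tbx3 (1.54), Tet2 (1.28), Klf5 (1.21) and Zfp42 (1.04), then Utf1 (2.18), Dppa2 (1.69), L1td1 (1.69), Gm19553 (1.51), Dppa4 (1.28) and Prdm14 (0.64), and of the LIF pathway Pim1 (1.36), Lifr (0.65) and Il6st (0.60). Klf2 and Mael did so without passing at day 4. The microRNA entries Mir292 (2.77), Mir292b (2.56), Mir291a (2.02) and Mir290a (1.71) moved in the same direction. Formative and methylation genes followed: Otx2 (4.30), Fgf5 (3.92), Foxd3 (3.18), Pou3f1 (2.59), Dnmt3a (2.05), Dnmt3l (1.99), Dnmt3b (1.25), Tet1 (0.91) and Jarid2 (0.82). Nodal genes and activin moved upward, with Lefty1 (3.17), Tdgf1 (3.06), Inhbb (2.81) and Nodal (1.82), except for Smad2 (-0.77). FGF genes also did, with Fgf4 (1.82), Spry4 (1.06) and Epha2 (1.01).

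Genes of lineages went both ways. Upward were Cdx2 (2.70), Pdgfra (2.35), Tcf15 (2.32), En2 (2.19), Gata6 (2.11), Gata4 (1.53), Eomes (1.31), Rarg (1.21) and Zic5 (1.08), the germ cell genes Dazl (2.62), Tuba3a (2.03), Calcoco2 (2.01), Tuba3b (1.95) and Tfap2c (1.03), and Hoxa10 (3.60) and Msc (1.66). Downward were the retinoic acid genes Aldh1a1 (-5.02), Crabp1 (-2.43), Crabp2 (-2.31) and Rarb (-2.04), the neural genes Nes (-1.59), Cdh2 (-1.09) and Notch1 (-0.70), the BMP genes Id3 (-4.23) and Bmp7 (-2.18), the germ cell genes Ifitm3 (-4.01) and Prdm1 (-3.25), and Adamts12 (-4.62), Plxna4 (-4.19), Eya1 (-2.92), Plxna2 (-2.77), Kdr (-1.74), Krt8 (-1.30), Lamb2 (-0.98), Cbfa2t2 (-0.53) and Arid3a (-1.66). Of imprinted and growth genes Igfbp5 (-3.11), Peg3 (-1.70), Mest (-1.42) and Igf2 (-1.10) moved downward and Grb10 (1.65) and Igfbp2 (1.36) upward. The cell cycle, Myc network and p53 genes Ccng1 (-1.62), Tnfrsf10b (-1.36), Mycn (-0.84), Ccnd1 (-0.72) and Mxd4 (-1.07) moved downward and Myc (1.90) upward. Metabolic genes moved upward, namely Tdh (1.87), Slc7a1 (1.27), Pfkp (1.18), Mthfd2 (1.06), Slc7a7 (0.98), Pdk1 (0.90), Shmt1 (0.85), Slc7a3 (0.80) and Slc2a3 (0.49), apart from Msmo1 (-0.48).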

How the results depend on the processing

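The 1491 higher and 1459 lower genes (2950 in all) became 674 and 843 (1517) when the fit held only the 4 day 4 libraries, and 1410 of these were among the 2950; that fit has 2 residual degrees of freedom and no interaction. Leaving out 1 of the 4 libraries gave 1661 to 2237 changed genes, 990 to 1104 higher, 648 to 1133 lower and 1171 to 1417 whose difference changed between the days; the lone library is then assumed to vary like the other groups. Under the other alternatives (pseudocounts 0.1 and 4, no filter or a mean of at least 10, median centring, equal totals, limma-voom and the replicate block) each count stayed within 1.5 times, from 1001 to 1888 higher, 1199 to 1904 lower and 1503 to 1989 for the change between the days, and the higher share ran from 34.5% to 61.2%. The median over all genes ran from -0.08 to 0.03. Leaving chromosome 8 out of the count, an alternative chosen after seeing the data, gave 1459 higher and 1196 lower. None of the 2950 calls changed sign under any alternative run. Most named genes were chosen for large changes or small adjusted p in these same libraries. The counts of named calls that were kept describe those genes only and do not measure how firm the other calls are. Of 149 named calls, 128 were kept under every alternative, 133 under those that leave out no library and 137 under all 4 that leave out 1. Pou3f1, which did not pass, (-0.04) was at 0.0241 with median centring and ran from -0.1866 without WT replicate 1 to 0.1025 without WT replicate 2. Of 1040 counts per list and alternative, 901 were within 1.5 times the reported count. Same-numbered DKO and WT libraries of day 4 deviated together with r = 0.19 over 18163 genes, but the labels state no pairing and there are only 2 pairs; the replicate number as a block gave 1526 higher and 1459 lower genes, and among named genes it added Zscan4c and removed no call. The causes of these changes were not tested. With 2 libraries a group, 21072298 to 26042379 reads deep, small changes and genes near 3 reads per library are beyond firm statements.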

Other observations

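Enzymes that feed one-carbon units from serine and threonine had 4 of 15 members higher and 1 lower at day 4 (median 0.18; 0 lower without DKO replicate 1 or either WT replicate and 2 without DKO replicate 2), after 1 higher and 9 lower at day 2. Over all genes 6.95% were higher and 6.8% lower at day 4, and 5.98% and 6.64% at day 2. The difference between DKO and WT moved upward between the days for 8 of the 15 enzymes and downward for 0, beside 4.53% and 4.07% of all genes. Mthfd2, the mitochondrial folate enzyme, held 2881 and 3218 counts in DKO cells, against 2220 and 2175 in WT cells (log2 0.47, SE 0.10, adjusted p = 0.0039). The serine hydroxymethyltransferase Shmt1 (0.55) rose as well, beside the threonine dehydrogenase Tdh.

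Enzymes of glycolysis did not share a direction. Pfkp, a phosphofructokinase, held 917 and 1023 counts in DKO cells, against 432 and 424 in WT cells (log2 1.18, adjusted p = 1.3e-06), and the kinase Pdk1 rose (0.58), while lactate dehydrogenase, Ldha, stood at 3045 and 3345 counts in DKO cells, against 4498 and 5320 in WT cells (log2 -0.62, adjusted p = 0.0012). In the list of Lin28 and let-7 genes 0 of 12 were higher and 3 lower (median -0.29). Arid3a, a DNA binding protein of the same list, held 344.2 and 348.5 counts in DKO cells, against 1492 and 1410 in WT cells (log2 -2.06, adjusted p = 1.1e-06). Mxd4, which competes with Myc for Max, fell (-1.13) and Max rose (0.63). In the list of interferon and nucleic acid sensing genes 0 of 17 were higher and 2 lower (median -0.31), or 1 lower without either DKO replicate or WT replicate 1. The interferon count stands beside 6.8% of all genes lower and is not read as a result about those genes. With the 4 day 4 libraries alone the calls of Mthfd2, Ldha and Max were lost (adjusted p = 0.053, 0.054 and 0.055).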
